A study of Rattus norvegicus with 2 samples.

Results

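Circular RNAs (circRNAs) of genes for ubiquitin ligases, ubiquitin-conjugating enzymes and ubiquitin-specific proteases were described in spinal cord of rats, from a bone cancer pain (BCP) group and a sham group. A circRNA is a closed RNA ring that splicing forms by linking the end of an exon to the start of the same or an earlier exon, and it is counted from reads across this back-splice junction. The set was taken by gene name: every circRNA whose host name begins with Ube, Ubr, Usp, Herc, Hect, Fbx, Trim, Rnf, Klhl, Arih or Nedd4, with Cul and a digit, or is Huwe1, Mycbp2 or Itch. This gave 309 circRNAs of 123 genes, of 11599 circRNAs in the table. No name was lost to the limit of 3 Mb on the stretch of chromosome that its circRNAs cover, since the widest gene covered 249456 bp.

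In the BCP group, living Walker 256 cells, a rat mammary carcinoma line grown as ascites in SD rats, were injected into the tibial marrow. The sham group had the same operation with Walker 256 cells that had been boiled for 20 min. Each group is described as 3 animals, killed 21 days after surgery, with no genetic change named; their age and sex are not stated. Spinal cord is the tissue label of both samples, while their source label names the cell line. The tissue label was taken, and neuronal hosts lead the markers below, mainly through Rims2 and Rims1. Each group gave 1 library, and no difference below has a replicate check. What is compared are 2 libraries, each of which may or may not pool the RNA of its animals, and not the conditions.

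The sham library held 113033 back-splice reads and the BCP library 78836, so sham was 1.43 times as deep. Of the marker genes of neurons, 10 of 18 hosted circRNAs, at 10634 and 9158 summed CPM in sham and BCP (counts scaled to the library total). Rims2 (879 and 548 reads) and Rims1 (281 and 123) held most of their 1202 and 722 reads. No other neuron marker had over 17 reads in a library. Oligodendrocyte markers (4 of 10 genes listed) rested mainly on Mbp, with 6 and 36 reads, and summed to 124 and 672 CPM. Microglia and macrophage markers (4 of 10) summed to 115 and 736 CPM and were led by Ikzf1, while Aif1, Cx3cr1, P2ry12 and Csf1r were listed at 0. Astrocyte markers (2 of 7, Gfap and Aqp4 at 0) summed to 752 and 672 CPM, and vessel and meninges markers (4 of 9) to 407 and 431. The vessel and meninges markers went both ways. Flt1 had 27 and 0 reads and Col1a1 7 and 0, while Vwf had 9 and 24 and Tek 3 and 10. Blood markers (1 of 7) summed to 0 and 25.4 CPM. None of 7 skeletal muscle and 8 epithelial markers was listed. The part of cell make-up in the ubiquitin gene results was not tested, and in whole tissue fewer cells of a type and less RNA per cell cannot be told apart.

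Ubiquitin is a small protein that is attached to other proteins by a relay of enzymes. An activating enzyme (E1) passes it to a conjugating enzyme (E2), and a ligase (E3) brings the E2 to the protein that is to be marked. Chains of ubiquitin send proteins to the proteasome or change their place and partners, and deubiquitinases take them off again. In neurons this system is known for the turnover of synaptic proteins and receptors and for axon maintenance. Here the readout is the circular RNA of these genes, not their linear RNA or protein.

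The whole set took 2.09% of sham back-splice reads (2357 reads; 2.003 to 2.17 by the exact binomial method) and 2.15% in BCP (1693 reads; 2.05 to 2.25). The summed ratio of BCP to sham was 1.03 (0.967 to 1.10). All intervals are 95%, and they cover the counting error of independent reads only; without molecular identifiers, several reads can come from the same molecule. The direction of this ratio rested on scaling, being 0.958 with median-of-ratios scaling and 0.9496 with TMM, both with intervals that held 1. The 124 circRNAs listed in both libraries alone gave 1.14 (1.06 to 1.22), with column totals unchanged. That filter kept 1817 of the 2357 sham reads and 1441 of the 1693 BCP reads. It thus dropped the larger part from the deeper library, which moved the ratio up. The same sum over all circRNAs was not taken, so 1.14 is not read as a rise of the set. Most members were thinly covered: the median was 5 reads over both libraries, and 95 of 309 had the 10 reads needed to be tested. Both libraries listed 124 of the circRNAs, sham alone 122 and BCP alone 63. The smallest count above 0 in the table is 2, so a listing of 0 does not show absence.

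Klhl8, which encodes a kelch-like adaptor of cullin-3 ligases, hosted the most abundant circRNA in sham (chromosome 14, 7186515 to 7190518, build rn6, as are all positions here). Its counts were 188 (sham) and 100 (BCP), or 1663 and 1268 CPM, a 1.31-fold lower level in BCP (1.02 to 1.69). It ranked 40 among all circRNAs in sham and 63 in BCP, and did not meet the rule used below.

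Among the next in abundance was Arih1, an RBR ligase that works with cullin complexes (chromosome 8, 64205386 to 64233082), with 76 and 61 reads (1.15-fold, 0.808 to 1.63). Trim37, a ligase of peroxisomes and centrosomes that is mutated in human mulibrey nanism, had 83 and 37 reads for its leading circRNA (chromosome 10, 74471246 to 74480363; 1.57-fold lower in BCP, 1.05 to 2.37). Rnf219, now named Obi1, a ligase of the origin recognition complex, had 66 and 52 reads. Rnf169, a chromatin reader at DNA breaks, had 60 and 49. Rnf14, an RBR ligase known as a partner of the androgen receptor, had 73 and 28 (chromosome 18, 31461554 to 31463598; 1.82-fold lower, 1.16 to 2.92). Ubr1, the ligase that reads destabilizing N-terminal residues, had 43 and 35. None of these met the rule used below. The 12 most abundant circRNAs of the set together held 35.7% of its sham reads and 36.6% of its BCP reads.

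**Figure D1:**
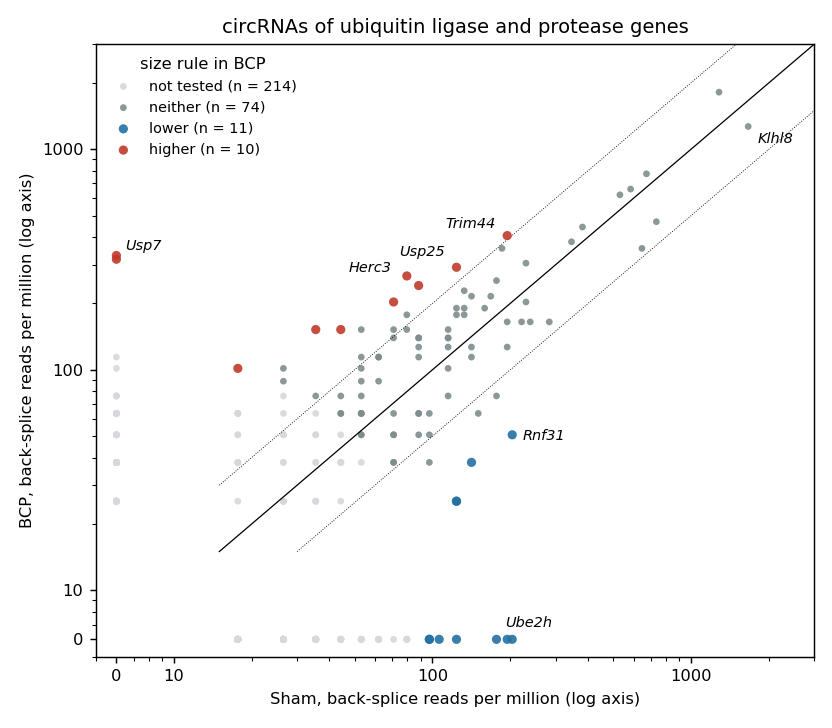
Back-splice CPM of each of the 309 circRNAs in sham (horizontal, log axis) and BCP (vertical, log axis), with counts of 0 placed at the mark 0; colours give the outcome of the size rule, the solid line is equality and the dotted lines are 2-fold. Most tested circRNAs lie between the dotted lines, and 7 of the 11 lower ones lie at 0 in BCP.

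A circRNA was called higher or lower when it had at least 10 reads over both libraries, a ratio of at least 2 and an interval that excluded 1. By this size rule 10 of the 95 tested members were higher in BCP (10.5%) and 11 were lower (11.6%), while 74 met neither side. Over all 3502 tested circRNAs of the table the rule called 7.82% higher and 7.42% lower. Both member shares lie near this background, and they are not read as a result about these genes. The median log2 ratio of the tested members, with 0.5 reads added to each count, was 0.28 (quartiles -0.52 and 0.77), beside 0.02 over all tested circRNAs (-0.56 and 0.52). With reads in both libraries required, 8 of 86 members were higher and 4 lower, and the table gave 5.86% and 2.65%. Thus 7 of the 11 lower calls, and 2 of the 10 higher ones, were circRNAs listed at 0 in the other library, for which no fold is given.

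The E2 enzymes, which hand ubiquitin on, had 26 circRNAs of 11 genes with 156 and 103 reads (ratio 0.947, 0.731 to 1.22). Of 11 tested, 0 were higher and 1 was lower. The lower one was a circRNA of Ube2h, an E2 of the CTLH ligase complex, with 23 sham reads and none listed in BCP (chromosome 4, 57539277 to 57561542). A shorter circRNA with the same end (57560121 to 57561542) had 18 and 15 reads, so these junctions of Ube2h differed in their ratios. Ube2q2 had 6 circRNAs with 35 and 36 reads in all (1.48-fold, 0.900 to 2.42) and none past the rule.

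HECT ligases, which take ubiquitin onto their own cysteine before passing it on, had 46 circRNAs of 14 genes. Their summed reads were 414 and 351, a ratio of 1.22 (1.05 to 1.41). The interval took in 1 with median-of-ratios scaling (1.13, 0.978 to 1.31), and also without the circRNA of the class with most reads (1.11, 0.921 to 1.33). Of 16 tested, 2 were higher and 2 lower. The higher ones were hosted by Herc3 (chromosome 4, 89131241 to 89138920), with 9 and 21 reads (3.35-fold, 1.47 to 8.30), and by Itch, a ligase known for restraining immune responses in mice (chromosome 3, 150728978 to 150731916), with 2 and 8 reads (5.74-fold, 1.15 to 55.4). Both rest on under 10 sham reads. The other Herc3 junctions had 8 reads in sham and none listed in BCP. Over all its circRNAs Herc3 had 17 and 21 reads (1.77-fold, 0.890 to 3.575), which met neither side of the rule. The lower ones were hosted by Ube3a, the ligase lost in human Angelman syndrome, and by Nedd4, a ligase of membrane receptors and channels. For Ube3a (chromosome 1, 116643750 to 116660509) there were 14 and 2 reads (4.88-fold lower, 1.12 to 44.3), and for Nedd4 (chromosome 8, 79330088 to 79338690) 11 reads in sham and none listed in BCP. The other 3 Ube3a circRNAs had 6 and 0 reads (116642079 to 116660509, which shares the end of the lower one), 15 and 14 (116604549 to 116610544) and 16 and 9 (116596378 to 116610544). In Nedd4, the circRNA that shares the start of the lower one (79330088 to 79347376) had 16 and 17 reads, and the others 3 and 0, and 0 and 2. In raw reads the junctions of Nedd4 thus pointed both ways. Those of Ube3a all had fewer raw reads in BCP. Scaled to depth, the Ube3a junction of 15 and 14 reads had a ratio above 1 (1.34, 0.599 to 2.97), with an interval that took in 1.

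The class labelled N-recognins (ligases that read protein N-termini) was taken by name alone, as every gene that starts with Ubr. It had 22 circRNAs of 5 genes with 159 and 84 reads, a ratio of 0.758 (0.574 to 0.993). This ratio turned to 1.47 (1.06 to 2.04) when only circRNAs with reads in both libraries were summed, so its direction rests on the 13 circRNAs listed in sham alone, beside 1 in BCP alone. Of 6 tested, 1 was higher and 2 were lower. Ubr3 hosted the higher one (chromosome 3, 56248980 to 56259928), with 5 and 12 reads (3.44-fold, 1.13 to 12.5). Of the lower ones, a circRNA of Ubr2 (chromosome 9, 16045486 to 16046478) had 11 reads and was listed at 0 in BCP. Its start lies 4 bp from that of another Ubr2 circRNA with the same end, which had 6 and 5 reads. Merged, this pair had 17 and 5 reads (ratio 0.422, 0.122 to 1.19) and did not meet the rule.

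The Ariadne ligases Arih1 and Arih2 had 120 and 108 reads over 10 circRNAs (ratio 1.29, 0.986 to 1.69). Arih2, which works with cullin-5, hosted the 1 higher circRNA of 4 tested (chromosome 8, 117438985 to 117441595), with 4 and 12 reads (4.30-fold, 1.30 to 18.3). All 3 circRNAs of Arih2 had more reads in BCP, 18 against 4 in sham (6.45-fold, 2.13 to 26.2).

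RING-finger ligases hold the E2 and its target together. The class here was taken by name, as Rnf genes and Mycbp2, and takes in RBR ligases such as Rnf14. It had 444 and 279 reads over 53 circRNAs of 23 genes (ratio 0.901, 0.773 to 1.05). With median-of-ratios scaling the interval lay below 1 (0.838, 0.719 to 0.975). Of 13 tested, 0 were higher and 2 lower. Rnf31, the catalytic subunit of the complex that builds linear ubiquitin chains, hosted a circRNA of 534 bp with 23 and 4 reads (chromosome 15, 34277381 to 34277914; 4.01-fold lower, 1.37 to 15.9). Rnf150, a membrane-anchored ligase, hosted one with 14 reads in sham and none listed in BCP (chromosome 19, 24195454 to 24221057). Mycbp2, a giant ligase of axon growth and degeneration, lay on the other side: its leading circRNA (chromosome 15, 93740923 to 93743488) had 21 and 28 reads, a ratio of 1.91 (1.05 to 3.54) that stayed below 2.

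Tripartite motif genes had 216 and 157 reads over 26 circRNAs of 9 genes (ratio 1.042, 0.843 to 1.29), and 1.29 (1.00 to 1.67) without the leading circRNA of Trim37. Trim44, an atypical family member without a RING finger, hosted the 1 higher circRNA of 7 tested (chromosome 3, 92183759 to 92225505), with 22 and 32 reads (2.09-fold, 1.18 to 3.77). It is also the most abundant of the higher circRNAs, and it missed the rule with median-of-ratios scaling (1.94-fold, 1.09 to 3.50).

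The parts of cullin-RING ligases had few calls. Cullins, the scaffolds, had 9 circRNAs with 14 and 14 reads, none with enough to be tested. By gene Cul1 had 6 and 4 reads (ratio 0.956, 0.198 to 4.03), Cul3 2 and 6, Cul4a 0 and 4, and Cul4b and Cul5 3 and 0 each. F-box proteins, which choose targets for cullin-1, had 35 circRNAs of 22 genes with 235 and 146 reads (ratio 0.891, 0.720 to 1.10), and of 13 tested 0 were higher and 1 lower. That one was hosted by Fbxo15, a gene of mouse embryonic stem cells, with 12 reads in sham and none listed in BCP (chromosome 18, 81825052 to 81836279). The F-box circRNAs with most reads were tied at 40: one of the iron sensor Fbxl5 (chromosome 14, 71861197 to 71877488), with 27 and 13 reads (1.45-fold lower, 0.722 to 3.06), and one of Fbxl17 (chromosome 9, 110908611 to 110925546), with 20 and 20 (1.43-fold, 0.732 to 2.81). Kelch-like adaptors of cullin-3 had 279 and 160 reads over 21 circRNAs (ratio 0.822, 0.673 to 1.002), and of 5 tested none was called. The interval lay below 1 with median-of-ratios scaling (0.765, 0.626 to 0.932), TMM (0.758, 0.620 to 0.924) and rows of a single name (0.787, 0.641 to 0.964), while without the leading Klhl8 circRNA the ratio was 0.945 (0.671 to 1.32). Ube3d, a ligase outside these families, had 11 and 11 reads over 4 circRNAs.

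**Figure D2:**
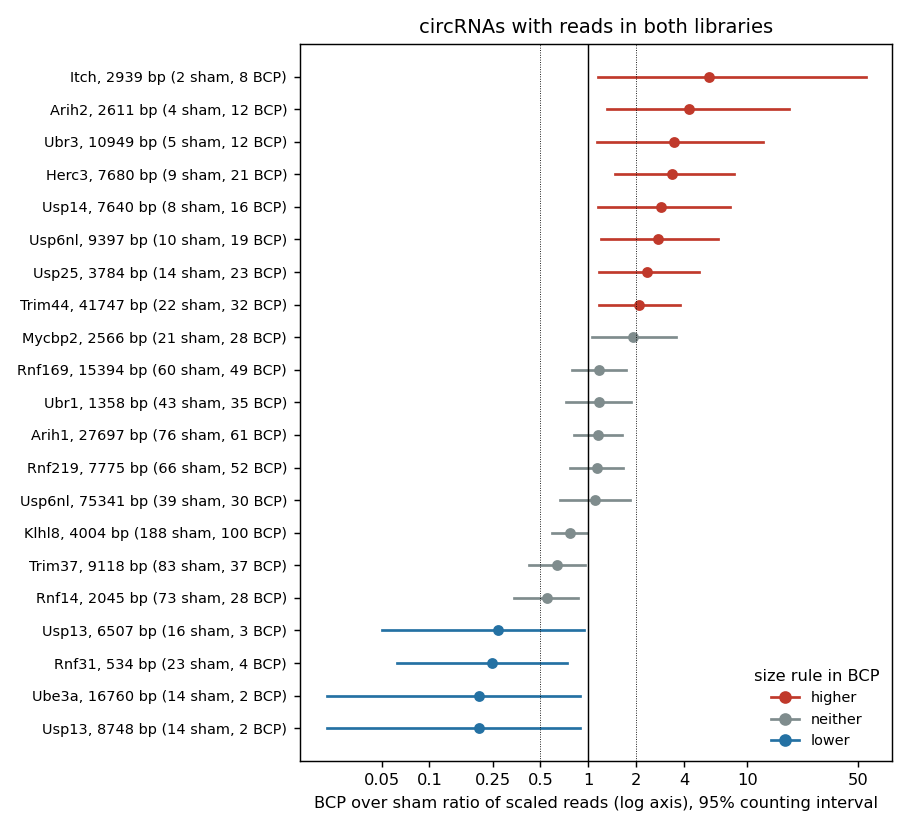
Ratio of BCP to sham scaled reads (log axis, points) with 95% counting intervals (bars) for the abundant circRNAs described and for those with reads in both libraries that met the size rule; labels give the gene, the genomic span and the reads, and dotted lines mark 2-fold either way. Most of the 8 higher and 4 lower circRNAs have wide intervals. Intervals are narrower for the abundant circRNAs, whose ratios run from 0.550 (Rnf14) to 2.09 (Trim44, also one of the 8 higher).

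Ubiquitin-specific proteases, which remove ubiquitin, held 5 of the 10 higher calls. Their 57 circRNAs of 21 genes had 309 and 280 reads, a ratio of 1.30 (1.10 to 1.53), and of 19 tested 5 were higher and 3 lower. Usp6nl is in this class by name only, since its product is a GTPase-activating protein of Rab5. Without it the ratio was 1.18 (0.965 to 1.43), and of 15 tested 3 were higher and 3 lower. Usp7, the deubiquitinase of Mdm2 and p53, hosted a circRNA of 1002 bp with 26 reads in BCP and none listed in sham (chromosome 10, 6991635 to 6992636). Usp25 hosted one with 14 and 23 reads (chromosome 11, 15457479 to 15461262; 2.36-fold, 1.16 to 4.95). Usp14, a deubiquitinase bound to the proteasome, had a single circRNA with 8 and 16 reads (chromosome 18, 1203074 to 1210713; 2.87-fold, 1.16 to 7.74).

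In the other direction, Usp8, which acts on receptors at endosomes, had 20 reads in sham and none listed in BCP from its only circRNA (chromosome 3, 119184942 to 119187183). Usp13 hosted a pair of lower circRNAs on chromosome 2. One (119238996 to 119247743) had 14 and 2 reads (4.88-fold lower, 1.12 to 44.3) and the other (119272438 to 119278944) had 16 and 3 (3.72-fold lower, 1.07 to 19.9). A longer circRNA that ends where the first of them does (119224123 to 119247743) had 6 and 8 reads, so the junctions of Usp13 went both ways in raw reads.

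**Figure D3:**
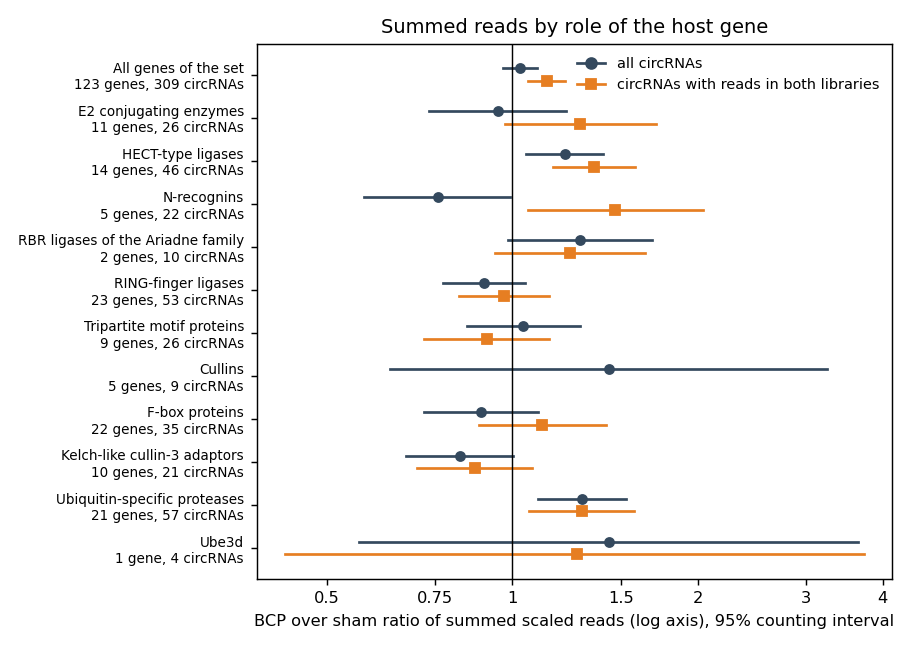
Ratio of BCP to sham summed scaled reads (log axis) by role of the host gene, from all circRNAs (circles) and from those with reads in both libraries alone (squares), with 95% counting intervals. The N-recognins lie below 1 with all circRNAs and above 1 with those in both libraries.

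Summing all circRNAs of a gene asked whether whole host genes differed. Of the 79 member genes that reached 10 reads, the rule placed 7 higher and 13 lower in BCP, and 59 met neither side; over 2144 host genes of the table the same rule called 8.82% higher and 8.58% lower. The higher genes were Usp7 (0 and 28 reads), Arih2, Usp25 (19 and 36 reads, 2.72-fold, 1.52 to 5.01), Trim5, a viral restriction factor in primates (3 and 11), Trim44, Usp14 and Fbxl13 (2 and 8). Usp25 is the best covered of them, and each of its 3 circRNAs had more reads in BCP.

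Among the lower genes, Klhl1, a neuronal kelch-like gene, had 14 reads from 3 circRNAs in sham and none listed in BCP. Klhl3, an adaptor that marks WNK kinases, had 22 and 2 reads (7.67-fold lower, 1.89 to 67.3). Fbxl20, which in mice marks the active zone protein Rim1, had 15 sham reads from a pair of circRNAs and none listed in BCP. Rnf40, a ligase of histone H2B, had 10 and 0 reads, and Usp8 20 and 0. Ubr2 had 35 and 5 reads (4.88-fold lower, 1.91 to 16.0), Rnf150 36 and 6 (4.19-fold, 1.75 to 12.2), Fbxo15 25 and 3 (5.81-fold, 1.77 to 30.1), Ube2h 46 and 15 (2.14-fold, 1.17 to 4.12) and Rnf31 23 and 4. Herc2 and Rnf214, named after their values were seen, had 20 and 5 reads each (2.79-fold lower, 1.02 to 9.51).

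These gene calls leaned on junctions listed in 1 library. When sums took in solely junctions that both libraries list, 4 of the 7 higher genes kept their call (Arih2, Trim44, Usp14 and Usp25), and Herc3 and Ubr3 joined them. Herc3 and Ubr3 joined because their junctions listed in sham alone, with 8 and 13 reads, were left out. Of the 13 lower genes, Rnf31 alone kept its call, 7 had too few reads to be tested and 5 met neither side. Ube2h (18 and 15 reads), Ubr2 and Rnf214 (6 and 5 each) and Fbxo15 (4 and 3) then had ratios above 1, with intervals that took in 1. The deeper library lists more thin circRNAs, and what part depth has in the lower gene sums was not tested. Over all tested circRNAs the lower share fell from 7.42% to 2.65% under this filter. No share over all host genes was taken under it, so these gene counts have no background and are not read as a result.

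**Figure D4:**
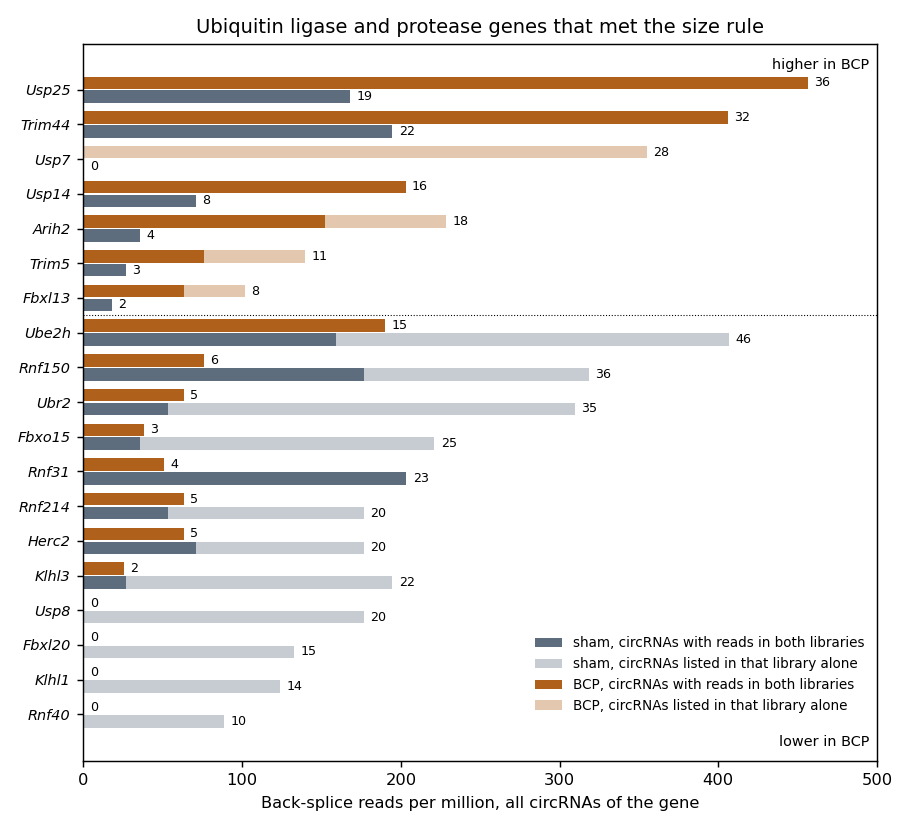
Back-splice CPM summed over all circRNAs of the higher and lower genes named here, in sham (grey) and BCP (brown), with raw reads at the bar ends; dark parts are circRNAs with reads in both libraries and pale parts are circRNAs listed in that library alone. Pale grey makes up most of the sham bars of the lower genes other than Rnf31 and Rnf150.

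Several genes gave many circRNAs from shared splice sites. Trim37 had 14, followed by Usp32 (10), Ubr3 (9), Usp6nl and Itch (8 each), Arih1 (7) and Ube2q2, Usp13, Rnf13 and Rnf216 (6 each), while 53 of the 123 genes had 1. In Trim37 the 7 circRNAs found in both libraries lie in a single stretch (74467237 to 74490078), built from 3 starts and 3 ends. Its leading circRNA held 48.3% of the gene's reads in sham (exact binomial interval 40.6 to 56.0) and 37.4% in BCP (27.9 to 47.7), and the rest of the gene had 89 and 62 reads, a ratio of 0.999 (0.710 to 1.40). In Arih1, 5 of 7 circRNAs start at 64205386, and the leading one held 65.5% of reads in sham (56.1 to 74.1) and 67.8% in BCP (57.1 to 77.2). The share of the leading Arih1 circRNA thus differed by less than its counting error.

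In Usp6nl and Usp32 the leading circRNA held a smaller share of reads in BCP, with intervals that overlapped those of sham. The long Usp6nl circRNA of 75341 bp (chromosome 17, 75797811 to 75873151) had 39 and 30 reads and held 48.8% of the gene's reads in sham (37.4 to 60.2) and 32.6% in BCP (23.2 to 43.2). A circRNA with the same start and a nearer end (75797811 to 75816925) was listed at 0 in sham and had 25 reads in BCP, and another with that nearer end (75807529 to 75816925) had 10 and 19 reads (2.72-fold, 1.21 to 6.56). All junctions other than the long one, this pair included, summed to 41 and 62 reads (2.17-fold, 1.44 to 3.30). Without this pair, the 5 junctions left had 31 and 18 reads (ratio 0.833, 0.439 to 1.53), so the higher sum rests on the pair that met the rule. In Usp32 the leading circRNA (72389570 to 72417059) had 22 and 10 reads, and the others 33 and 45 (1.96-fold, 1.22 to 3.16), of which 4 were listed in BCP alone. Ubr3 had 36 and 36 reads (1.43-fold, 0.878 to 2.34), with 4 of its 9 circRNAs in sham alone and none in BCP alone. Itch, with 22 and 20 reads over 8 circRNAs, had 4 in sham alone and 1 in BCP alone.

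**Figure D5:**
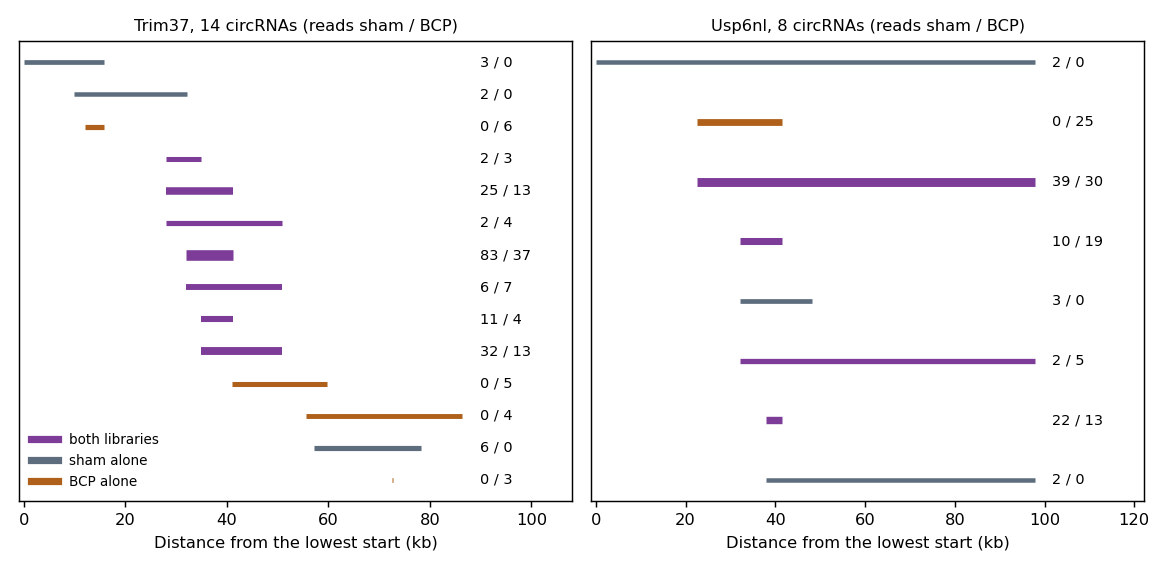
The circRNAs of Trim37 and Usp6nl drawn to scale along the genome as distance in kb from the lowest start of the gene's circRNAs, with reads in sham and BCP at the right; colour gives the libraries that list each circRNA and line thickness rises with its reads. The circRNA of Usp6nl with 25 reads in BCP alone shares its start with the one of 39 and 30 reads.

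Features that played no part in choosing the set were close to the rest of the table, with a few exceptions. The median genomic span was 8319 bp, with 9782 bp in the other 11290 circRNAs. Spans of 500 bp or less were found in 11 members (3.56%, exact binomial interval 1.79 to 6.28) and in 6.19% of the others (5.75 to 6.65). Only 3 members (0.971%, 0.201 to 2.81), of Klhl1, Fbxl17 and Rnf13, spanned 100 kb or more, beside 3.06% of the others (2.75 to 3.40), and all 3 were listed in sham alone with 3 or 4 reads. Members shared their end with another circRNA in 29.4% (24.4 to 34.9) and the others in 39.1% (38.2 to 40.0), while starts were shared in 35.9% (30.6 to 41.5) and 37.7% (36.8 to 38.6). Members were listed in both libraries in 40.1% (34.6 to 45.8), beside 41.2% of the others (40.3 to 42.1). CircRNAs of 1 gene share splice sites, so these intervals treat as independent what is not.

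Other genes of the ubiquitin system, outside these names, were described from 8 lists, with counts of circRNAs tested and called. Together 104 of 338 genes hosted 298 circRNAs with 2817 and 2019 reads (ratio 1.03, 0.970 to 1.09), and of 98 tested 6 were higher and 7 lower, with a median log2 ratio of 0.02. Over all 3502 tested circRNAs of the table the rule called 7.82% higher and 7.42% lower. The counts of calls in these lists are not read as a result about their genes. Ubiquitin, proteasome and shuttle factor genes had 2 higher and 0 lower of 17, and a summed ratio of 1.23 (1.039 to 1.45). The higher ones were Faf1, a cofactor of the Vcp segregase (9 and 26 reads, 4.14-fold, 1.88 to 10.05), and Psmb2, a subunit of the proteasome core (8 and 24 reads, 4.30-fold, 1.87 to 11.1). Further HECT and RBR ligases had 1 higher, Ankib1 (5 and 14 reads, 4.01-fold, 1.37 to 14.2), and 2 lower of 22, Wwp2 (24 reads in sham) and Trip12 (12), both listed at 0 in BCP. Further RING and U-box ligases had 2 higher of 29, Brap (52 BCP reads, none listed in sham) and Mkrn2 (6 and 17 reads, 4.06-fold, 1.53 to 12.6), and 1 lower, Ttc3 (10 and 0).

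Adaptors and regulators of cullins had 0 higher and 3 lower of 16, led by Dcaf6 (37 and 10 reads, 2.58-fold lower, 1.26 to 5.82) and Wsb1 (11 sham reads, none listed in BCP); the third, named after its values were seen, Btrc, the F-box protein of beta-catenin turnover (11 and 0 reads). Further deubiquitinases had 1 higher, Atxn3, the gene of human Machado-Joseph disease (3 and 11 reads, 5.26-fold, 1.39 to 29.4), and 1 lower, Stambpl1 (10 and 0 reads), of 8. The anaphase-promoting complex had 0 called of 2 tested, with 47 and 22 reads (ratio 0.671, 0.385 to 1.14). SUMO and related pathways had 0 of 4, with 123 and 103 reads (1.20, 0.915 to 1.57). E1 enzymes had 8 and 2 reads from 3 circRNAs, too few to test.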

How the data were processed

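Reads were made from ribosome-depleted spinal cord RNA treated with RNase R (16 units, 15 min), which removes linear RNA, in strand-marked libraries, per the labels' protocols. The authors deposited 1 table with whole-number back-splice read counts per circRNA and, under the heading TPM, CPM values, which are each count scaled to its column total, with 0.001 in place of 0. Per the submitters' processing notes, CASAVA 1.8, BWA and build rn6 were used; no source used here gives the circRNA caller or its read minimum. No rn6 genome was used, so exons and junction sequences were not analysed here.

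Counts were scaled to column totals. A ratio has the exact binomial (Clopper-Pearson) 95% interval of the BCP share of its reads, and the size rule asks for at least 10 reads, a ratio of at least 2 and an interval without 1. No p-value could be had with 1 library per group. Of the 123 names, 122 matched a RefSeq symbol and 1 a synonym (GRCr8, names alone). Small RNA family names beside a host name were ignored; 25 members had further names. Host genes of the table are those left with a single name.

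Members and lists were chosen with earlier results of these data known. Named circRNAs were the 12 most abundant, up to 12 per direction that met the rule with reads in both libraries, up to 8 per direction listed at 0 in the other library, and the leading one of each role; named genes were the 8 with most circRNAs and up to 10 per direction that met the rule. Other circRNAs of these genes were named after their values were seen. In the further ubiquitin lists up to 2 per list and direction were named. Some items that these rules take in are not reported here. Steps were tested on simulated data. Alternatives were scaling by TMM (edgeR 4.0.16) or by median-of-ratios factors (DESeq2 1.42.0), other read minimums and ratios, circRNAs in both libraries alone, rows with 1 name, another span limit, another pseudocount, and the leading circRNA left out. Leaving out Usp6nl and merging circRNAs within 10 bp were added after the data were seen. Python 3.11.15, numpy 2.4.6 and scipy 1.17.1 were used.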

Additional observations from a re-analysis of the deposited data

How the results depend on the processing

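With 1 library per group the spread between animals is unknown, and no paired analysis was possible because each group has a single library with no replicate number. Median-of-ratios and TMM scaling shift all log2 ratios by -0.10 and -0.12. Each left 9 higher and 11 lower member circRNAs of 95 and cost Trim44 its call. The background over all 3502 tested circRNAs moved as well. Its share of higher calls fell from 7.82% to 6.6% (median-of-ratios) and 6.51% (TMM). Its share of lower calls rose from 7.42% to 8.74% and 8.91%, in the same order. Those scalings turned the summed ratio of the set to 0.958 and 0.9496. A minimum of 5 reads gave 22 higher and 23 lower of 173 member circRNAs, where 11% and 8.98% of all circRNAs were called, and a minimum of 20 gave 7 and 4 of 52, where 7.72% and 6.39% were. A ratio of at least 3 gave 6 higher of 95 circRNAs (5.91% of all) and 4 higher of 79 genes (6.06% of all). On the lower side it gave 11 of 95 circRNAs (6.28% of all) and 10 of 79 genes (6.53% of all). CircRNAs in both libraries alone gave 4 lower circRNAs, 1 lower gene and summed ratios of 1.14 (1.06 to 1.22) for the set, 1.29 for E2 enzymes, 1.12 for F-box proteins and 1.47 for N-recognins, which reversed; the summed reads of Ubr2 (1.195), Rnf214 (1.195), Ube2h (1.195) and Fbxo15 (1.075) reversed too. That setting drops junctions listed in 1 library by construction, more of them from the deeper sham library. Under it 2.65% of all tested circRNAs were lower. No share was taken over all genes, and no sum over all circRNAs. Without the leading circRNA, tripartite motif genes had 1.29. With rows of a single name, the ratio of N-recognins was 0.879. The median log2 ratio of tested members stayed above 0, from 0.16 with TMM to 0.30 with a pseudocount of 1 read. A limit of 1 Mb on names changed none of the counts and sums.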
